A study of Mus musculus with 8 samples.

Results

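This is an account of how gene expression changed when mouse embryonic stem cells were moved into KSR induction medium and kept there for 4 days, a step toward neurons per the labels. It rests on 4 of the 8 libraries of the series: a day 0 and a day 4 library of cells labelled WT, and a day 0 and a day 4 library of cells labelled KO, for a deletion of Dip2c. All 4 came from the stem cell line 46C, a mouse line used to follow neural induction. Day 0 cells were proliferating in stem cell medium, and day 4 cells had been in KSR induction medium. The other 4 libraries, of the same genotypes at day 0 and after 6 days in N2B27 medium, had their own coefficient in the fit and helped estimate its error. Of the 55078 gene symbols in the expression table, 15965 reached an FPKM of 1 in at least 2 libraries and were tested. FPKM gives fragments per transcript length and library size, so its levels can be compared between genes.

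Each genotype and day was 1 library, so the change is replicated by 2 pairs, here called the WT pair and the KO pair, and values are given in that order throughout. For 4 samples the labels disagree: the description of each KO sample of the KSR series names a WT column of the N2B27 series, and the reverse, and the titles were followed, so the KO pair and the comparison with N2B27 rest on the titles. Nothing in the labels says how many cultures or clones stood behind a library, and p-values measure only the spread between these libraries. In the KSR libraries the FPKM summed to 539478 to 562350, 13451 to 14059 genes were at 1 or more and 6.14% to 6.49% of that sum lay in genes of the mitochondrial genome. Read counts were not used here and the depth is unknown. The steps between the lowest values gave depths of 0.973 to 1.08 relative to the WT library of day 0. Only similar depths were searched, so a large difference could not have shown and like depth is not established. Dip2c, the gene named as deleted, went from 3.69 to 4.86 FPKM in the WT pair and from 3.33 to 4.43 in the KO pair (0.33 ± 0.20 log2, standard error, limma adjusted p = 0.222). In the N2B27 series it had 2.74 and 2.91 FPKM at day 0 and 5.78 and 4.43 at day 6. Its mRNA was thus read under both labels and the KO label is followed as a label only. Eif2s3y, a gene of the Y chromosome, was at 14.9 and 8.56 FPKM in the KSR libraries labelled WT and listed at 0 in both KO-labelled ones. The libraries of each label were thus alike in this mark. Medium, days in culture and the state of the cells changed together between day 0 and day 4 and cannot be told apart.

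Embryonic stem cells in stem cell medium hold a naive pluripotent state through a circuit of transcription factors, among them Klf4, Esrrb, Tfcp2l1 and Nanog, which the cytokine LIF sustains through Stat3. When that support is withdrawn, cells pass through a formative state like that of the early epiblast, and under neural conditions take on the profile of the neural plate. Retinoic acid, hedgehog, FGF, Wnt and BMP signals then give neural progenitors their place along the head-to-tail and back-to-belly axes.

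Of 15965 genes, 4411 rose (27.6%) and 3102 fell (19.4%) between day 0 and day 4 at a limma adjusted p under 0.05, and the median change of all genes was 0.08 log2. Changes are differences of log2(FPKM + 1), fitted with their standard error (n = 2 KSR pairs). All 7513 genes called had the same sign in both pairs. The call itself favours this, since a gap between the pairs counts as error in the fit. A fit with a KSR pair left out has no replicate of the KSR change and takes its error from the N2B27 pairs alone. Without the WT pair 2143 rose and 1520 fell, and without the KO pair 2129 rose and 1622 fell. With no test at all, 2144 genes (13.4%) were at least 2-fold higher at day 4 in both pairs and 1528 (9.57%) at least 2-fold lower, whereas 25 moved 2-fold in opposite directions, 23 of which were predicted genes, clones or pseudogenes. Protein-coding genes rose more often than they fell, 30.5% against 20% of 12989. Pseudogenes showed the reverse, with 11.4% of 1701 higher and 13.9% lower.

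The changes of the 2 pairs correlated at r = 0.913 (Spearman rho 0.888) across the genes tested, which are not independent replicates, and the median gap between them was 0.21 log2. Among the 7513 called genes, 195 had pairs that differed by at least 1. One of these was Cdkn1c, an imprinted inhibitor of the cell cycle, which went from 2.32 to 23.6 FPKM in the WT pair and from 0.376 to 3.06 in the KO pair. As ratios of FPKM its 2 rises were close to each other, and the gap on the log2 scale comes from the 1 added to each value, which weighs more on the lower levels of the KO pair. Cdkn1c did not pass without the WT pair. Cdkn1c did not pass with no block of genotype, with 5 added (1.27) or with no filter. Another was Lifr, the LIF receptor gene, at 17.8 to 4.59 and 31.1 to 3.08 FPKM in the WT and KO pairs. With 1 library per condition such gaps were not tested.

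**Figure D1:**
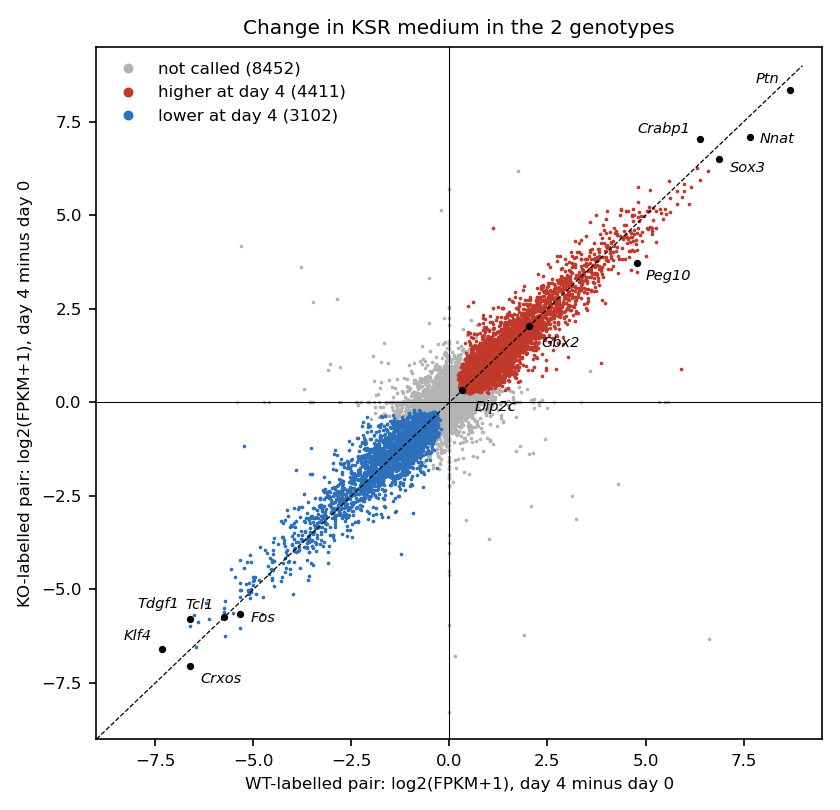
Change of each of 15965 genes in KSR medium, day 4 minus day 0 on log2(FPKM+1), in the WT-labelled pair (horizontal) and the KO-labelled pair (vertical); red and blue points passed the limma test and the dashed line marks equal change. The points lie along that line (r = 0.913), from Klf4 at the lower left to Ptn at the upper right.

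A set of 176 genes was switched on in the strict sense of lying below 1 FPKM in both day 0 libraries and at 10 or more in both day 4 libraries, and 166 of them were protein-coding. In the other direction 92 genes lay at 10 or more at day 0 and below 1 at day 4, 73 of them protein-coding. Levels of a bulk sample do not tell fewer cells of a type from less RNA per cell, and this holds for every change below.

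Ptn, which encodes the secreted growth factor pleiotrophin, had the largest rise by the fit, and was listed at 0 in both day 0 libraries and at 410.3 FPKM in the WT and 328 in the KO library of day 4. Nnat, an imprinted gene of a small membrane protein in developing brain, went from 2.74 to 752 FPKM in the WT pair and from 3.99 to 682 in the KO pair (7.38 ± 0.28 log2, adjusted p = 6.72e-05). Crabp1, whose product binds retinoic acid in the cytoplasm, went from 18.1 to 1608 and from 7.66 to 1141 FPKM and was then the fourth most abundant nuclear-encoded mRNA. Every day 4 value of these 3 genes, chosen for the size of their rise, lay above every day 0 value. The related Crabp2 went from 3.46 to 353 and from 3.26 to 327 FPKM (6.29 ± 0.13). Among transcription factors, Sox3, a neural plate gene of the SoxB1 group, went from 0.195 to 140.1 and from 0.401 to 126 FPKM, Irx3 of the Iroquois homeobox group from 0.120 to 108 and from 0.145 to 82.5 FPKM and the orphan receptor gene Nr2f1 from 0.0303 to 85.3 and from 0 to 60.7 FPKM. Sox11, which acts in young neural cells, rose by 5.73 ± 0.19 log2 and the hindbrain gene Hoxb2 by 5.82 ± 0.22. Fabp7, a lipid-binding protein of radial glia, Cdh2, the neural cadherin, and Crmp1, a semaphorin-response protein, rose by 5.96, 5.91 and 5.76. The log2 values of genes near 0 on one side depend on the added 1 and are not bounds on the fold.

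Klf4, a zinc finger factor of the naive state, had the largest fall by the fit and went from 388 to 1.41 FPKM in the WT pair and from 273 to 1.86 in the KO pair (−6.96 ± 0.50 log2, adjusted p = 0.000266). Crxos, a homeobox gene of stem cells, went from 96.1 to 0 and from 161 to 0.225 FPKM, and Tfcp2l1 from 133 to 0.533 and from 141 to 0.540 FPKM. Tdgf1, the Nodal co-receptor Cripto, went from 409.5 to 3.16 and from 327 to 4.97 FPKM. In each of these genes, chosen for the size of their fall, both day 4 libraries lay far below both day 0 libraries. Tbx3 fell by 6.14 ± 0.27 log2, Esrrb fell by 5.96 ± 0.23 and Tcl1, a co-activator of Akt kinase, fell by 5.74 ± 0.17. Tdh, the threonine dehydrogenase on which mouse stem cells rely for one-carbon units, went from 306 to 2.40 and from 284 to 4.503 FPKM, and Spp1, the secreted protein osteopontin, from 345 to 3.70 and from 314 to 6.71 FPKM. Fam25c fell by 5.68 ± 0.17. Rpl10l, a retrogene of Rpl10, and Tuba3a, a testis tubulin with the near copy Tuba3b, fell (−5.98 ± 0.35 and −5.68 ± 0.19 log2), and reads could be split between such copies, so their levels are uncertain.

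**Figure D2:**
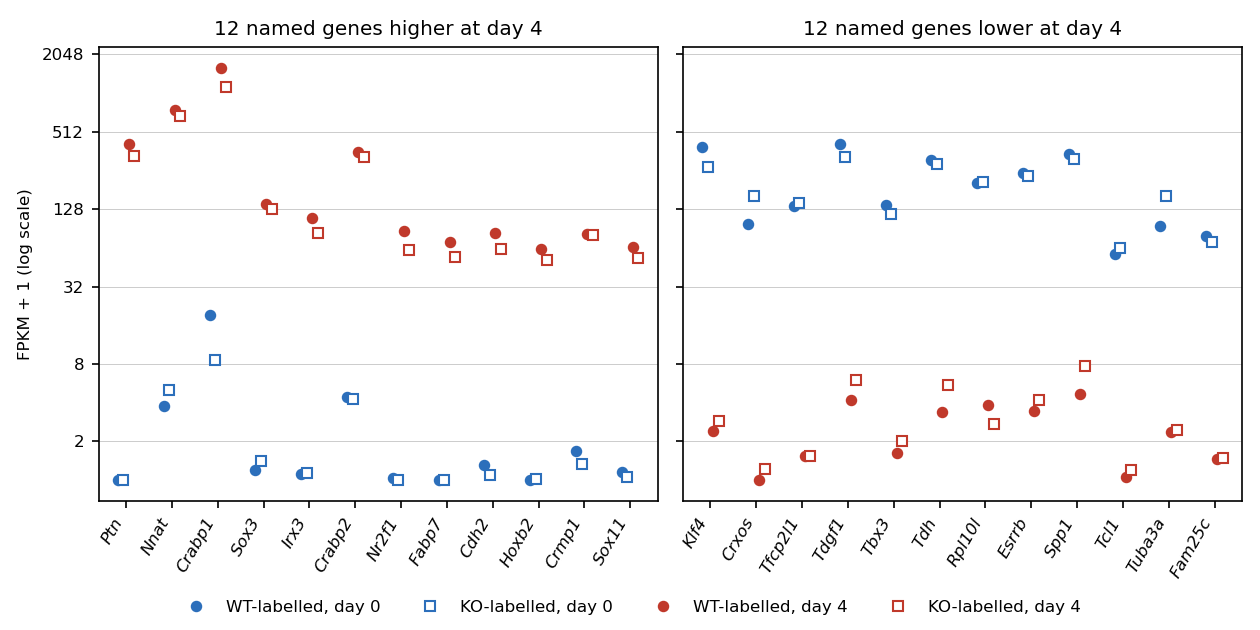
FPKM plus 1 on a log scale in each of the 4 KSR libraries, for the 12 named genes with the largest rise and the 12 with the largest fall (blue day 0, red day 4, circles WT-labelled, squares KO-labelled). Day 0 and day 4 values do not overlap for any of the 24 genes, which were chosen for the size of their change. Ptn went from 0 to 410 and 328 FPKM and Klf4 from 388 and 273 to 1.41 and 1.86.

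Genes were then read by 45 lists of known function. Some genes stand in several lists, such as Tfap2c in those of surface ectoderm and trophoblast, so the lists are not separate observations. Counts of rises and falls in a list are to be read against the 27.6% and 19.4% of all genes tested. Those shares hold for the main fit only. With a pair left out fewer of all genes were called, as given above, so list counts from such fits have lower shares beside them. With no filter 3812 genes rose and 2753 fell of 26900 tested, and with a filter at 5 FPKM 3378 and 2376 of 11567. Where leaving out a pair moves such a count by over 1.5 times, the counts without the WT and without the KO pair follow in brackets, in that order. Where another setting moves a count that far and either count is at least 3, its value closes the paragraph, with the number tested where that differs. Named genes that lose their call under another setting follow there, with the log2 change in brackets where it moves by over 1.5 times, and so do called genes whose change moves that far, other than by a change of the added 1. Named genes that gain a call under another setting are counted at the end.

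**Figure D3:**
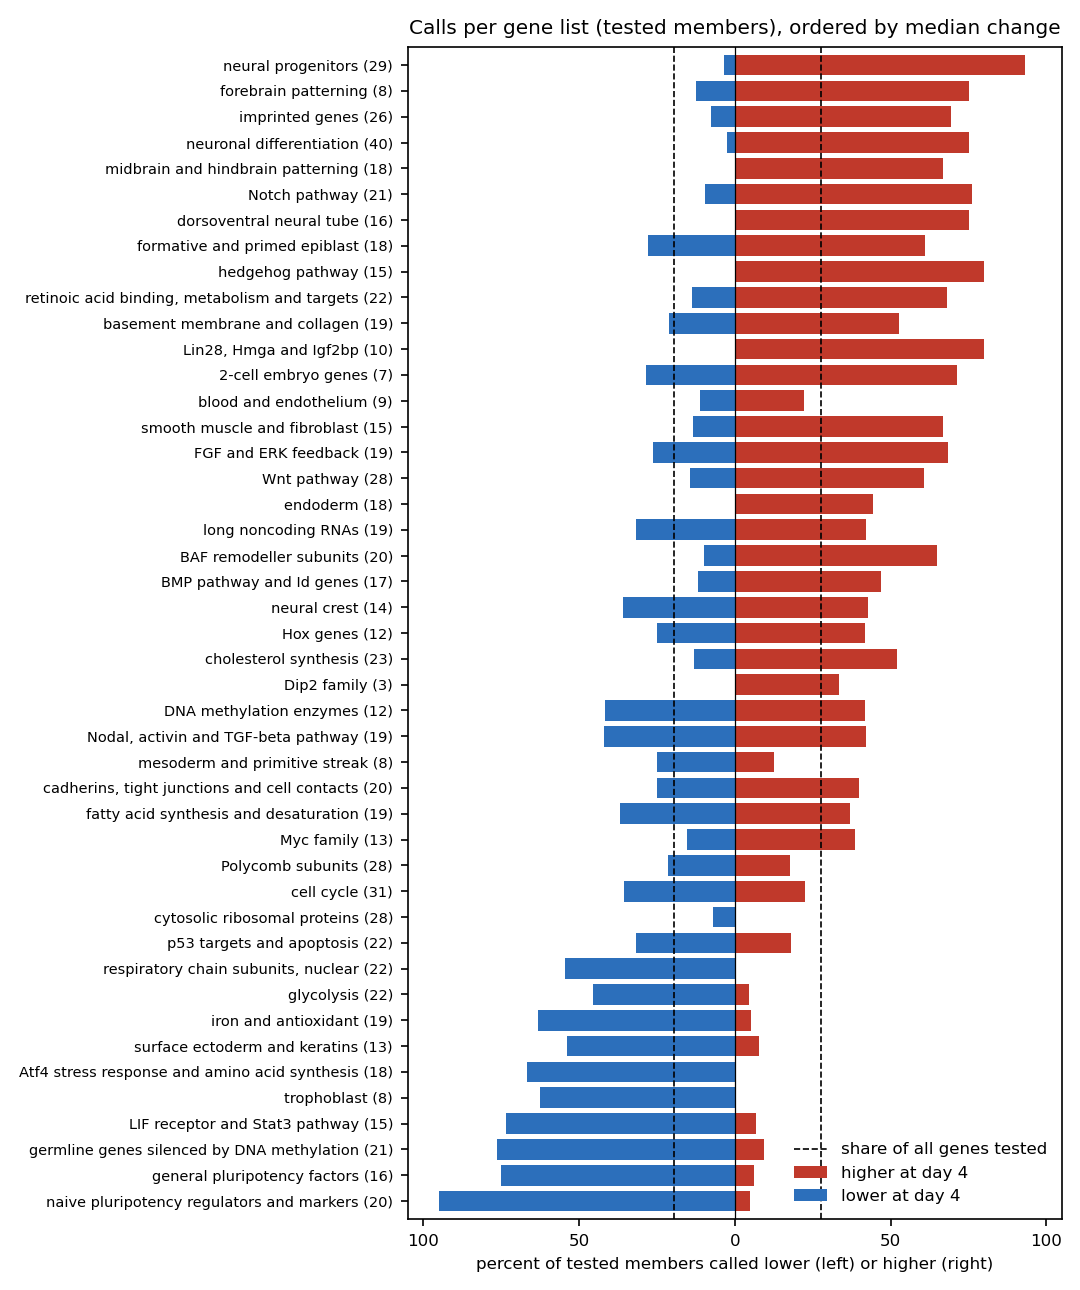
Percent of tested members of each of 45 gene lists called higher (red, right) or lower (blue, left) at day 4, ordered by the median change, with the number tested in brackets; dashed lines mark 27.6% higher and 19.4% lower among all genes tested. Neural progenitor genes stand at the top with 27 of 29 higher and naive pluripotency genes at the bottom with 19 of 20 lower.

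Of the 20 naive pluripotency genes, all of which were tested, 19 fell and 1 rose (0 and 0 rose without the WT and the KO pair), with a median of −4.89 log2 (−5.03 in the WT and −4.82 in the KO pair). The summed FPKM of the list went from 3008 to 146 in the WT pair and from 2716 to 166 in the KO pair. Nanog, the homeobox gene at the centre of the circuit, went from 362 to 9.76 FPKM in the WT pair and from 285 to 15.9 in the KO pair (−4.58 ± 0.27 log2, adjusted p = 0.000156). Both day 4 libraries still held Nanog mRNA, with more in the KO-labelled one. Zfp42, also called Rex1, went from 273 to 7.23 and from 255 to 6.66 FPKM, and Prdm14, a repressor of Fgf signalling and of DNA methylation in stem cells, from 20.1 to 0.198 and from 17.97 to 0.242 FPKM. The smallest level at day 0 among those cited here was that of Dppa3, also called Stella, which had 0.990 and 1.91 FPKM at day 0 and 0.231 and 0.488 at day 4. Gbx2 was the single member that rose, from 18.1 to 77.4 and from 17.9 to 76.5 FPKM. It is a downstream factor of LIF in stem cells and is also the homeobox gene that marks the anterior hindbrain. Dppa3 and Gbx2 did not pass with either pair left out. Dppa3 did not pass with both day 0 series together (−2.06), with 5 added (−0.26) or with no filter, and Gbx2 did not pass with no filter.

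The promoter of Nanog is shown because the gene is a known target of Pou5f1 and Sox2, whose own mRNAs changed to different extents here. The stretch covers 200 to 11 bases before the RefSeq start of the gene (GRCm38.p6, chr6:122707289-122707478, plus strand), and capitals mark a match to the composite octamer and Sox motif CATTGTNATGCAAA on the minus strand, 75 to 62 bases before the start.
Nanog: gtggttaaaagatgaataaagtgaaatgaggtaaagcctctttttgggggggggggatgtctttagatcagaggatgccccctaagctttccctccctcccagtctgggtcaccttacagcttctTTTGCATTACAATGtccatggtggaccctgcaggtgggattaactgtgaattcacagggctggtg
Searched on both strands of the 250 bases before each start, this motif occurred in 2 of 32851 RefSeq promoter windows (0.00609%), both of Nanog. Such a match is a description of the letters and says nothing of binding in these cells.

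Of 16 general pluripotency genes, 12 fell and 1 rose, with a median of −2.47 log2 (−2.76 in the WT and −2.18 in the KO pair). Pou5f1, which encodes Oct4, went from 699 to 47.8 FPKM in the WT pair and from 631 to 90.4 in the KO pair (−3.32 ± 0.31 log2). Sox2, its partner and also a neural progenitor factor, went from 275 to 198 and from 269.6 to 176 FPKM (−0.54 ± 0.14, adjusted p = 0.0229). Both genes fell, Sox2 by the smaller log2 change. Dppa5a, an RNA-binding protein gene among the most abundant at day 0, went from 1898 to 60.2 and from 1972 to 77.3 FPKM. Sall4 had −0.05 and did not pass, and Utf1 had −1.21 in the WT and 0.31 in the KO pair. Lin28a, whose product blocks maturation of let-7 microRNAs, was the member that rose, from 11.9 to 198 and from 14.0 to 194 FPKM. Sox2 did not pass with either pair left out. Sox2 did not pass with no filter or with no trend.

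In the LIF signalling list of 15, 11 fell and 1 rose, with a median of −1.77 log2 (−1.75 in the WT and −1.86 in the KO pair). Its direct target Socs3, the feedback inhibitor of the pathway, went from 55.7 to 5.74 FPKM in the WT pair and from 47.5 to 7.26 in the KO pair, Stat3 itself from 39.7 to 8.21 and from 49.2 to 9.86 FPKM, and the co-activator gene Bcl3 from 43.1 to 0.244 and from 49.1 to 0.525 FPKM. The shared receptor chain Il6st fell by 0.50 ± 0.14. Jak2 was the exception, rising from 1.81 to 17.2 and from 2.52 to 13.1 FPKM. Il6st did not pass with either pair left out. Il6st did not pass with no filter or with no trend.

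Genes of the formative and primed epiblast went both ways, with 11 of 18 higher and 5 lower and a median of 1.74 log2 (1.33 in the WT and 1.89 in the KO pair). Pou3f1, also called Oct6, went from 0.314 to 36.1 FPKM in the WT pair and from 0.242 to 49.8 in the KO pair, and Sall2, a zinc finger gene, from 1.33 to 65.3 and from 1.20 to 62.4 FPKM. Fgf5, the classic marker of the egg cylinder epiblast, was listed at 0 in both day 0 libraries and at 3.79 and 5.88 FPKM at day 4. Wnt8a rose from 0.142 and 0.0488 to 16.7 and 24.5. Against these, Etv5 and Etv4, targets of FGF, fell (−2.55 ± 0.17 and −1.02 ± 0.29 log2), Nodal fell by 2.20 ± 0.26 and Foxd3 went from 32.5 to 2.08 and from 27.4 to 3.81 FPKM. Otx2, which drives the exit from the naive state and later marks forebrain and midbrain, had 4.87 and 9.74 FPKM at day 0 and 6.09 and 11.7 at day 4 (0.26 ± 0.17, adjusted p = 0.253). It was higher at day 4 within both pairs, though the WT-labelled day 4 library lay below the KO-labelled day 0 library. Etv4 did not pass without the WT pair. Etv4 did not pass with no filter. Etv4 had −0.67 without the WT pair.

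FGF pathway genes showed a change of ligands and receptors. Of 19 genes, 13 rose and 5 fell, with a median of 1.11 log2 (0.93 in the WT and 1.28 in the KO pair). Fgf4, the ligand that stem cells make, went from 68.6 to 1.18 FPKM in the WT pair and from 67.5 to 1.68 in the KO pair. Fgf15 rose from 0.559 to 26.9 and from 0.649 to 31.8 FPKM and Fgf8, the ligand of the midbrain and hindbrain border, from 0.383 to 8.94 and from 0.352 to 15.1 FPKM. The receptor genes Fgfr1, Fgfr2 and Fgfr3 rose by 1.33, 4.39 and 2.84 log2. Of genes that encode feedback inhibitors of ERK, the phosphatase genes Dusp6 and Dusp4 rose by 1.95 ± 0.20 and 3.60 ± 0.23 and Spry2 by 1.02 ± 0.14, while Spry1 had 0.63 ± 0.25 and did not pass. Of early response genes, Fos, a subunit of AP-1, went from 309 to 6.67 and from 206 to 3.13 FPKM and Egr1 from 259 to 15.6 and from 204 to 9.60 FPKM, while Egr2, described below with the hindbrain genes, rose by 1.71 ± 0.18.

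Among 19 tested genes of Nodal, activin and TGF-beta signalling, 8 rose and 8 fell, with a median of 0.26 log2 (0.02 in the WT and 0.50 in the KO pair). The ligands Nodal and Gdf3 and the co-receptor Tdgf1 fell (−2.20, −3.14 and −6.20 log2). Smad7, an inhibitor of the pathway, went from 125 to 4.24 FPKM in the WT pair and from 102 to 4.81 in the KO pair. Of receptor genes, Acvr2a and Acvr2b rose by 1.81 ± 0.18 and 1.70 ± 0.18, and Acvr1b fell by 0.54 ± 0.14. Fst, the activin antagonist follistatin, rose by 2.59 ± 0.18. The 2 Lefty genes, both Nodal antagonists, parted: Lefty2 fell from 21.0 to 3.45 and from 18.1 to 6.79 FPKM, and Lefty1 rose from 3.48 to 15.8 and from 2.61 to 30.3 FPKM. Acvr1b did not pass with either pair left out. Lefty1 did not pass with both day 0 series together (1.39).

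Of 17 tested genes of BMP signalling 8 rose and 2 fell (5 and 6 rose, and 0 and 1 fell without the WT and the KO pair), with a median of 0.60 log2 (0.60 in the WT and 0.61 in the KO pair). Id1, Id2 and Id3, which encode inhibitors of basic helix-loop-helix factors and are direct BMP targets, rose by 2.51 ± 0.22, 3.54 ± 0.16 and 1.28 ± 0.16. Id2 was the highest of them at day 4, at 114 and 98.6 FPKM. The ligand gene Bmp4 fell from 4.47 to 0.381 FPKM in the WT pair and from 2.64 to 0.463 in the KO pair, while the antagonist Chrd rose from 1.10 to 2.74 and from 1.21 to 4.05 FPKM. Id4 and the decoy receptor gene Bambi had −0.30 and −0.31 and did not pass. Chrd did not pass with either pair left out, and Bmp4 did not pass without the WT pair. Bmp4 did not pass with no filter, and Chrd did not pass with both day 0 series together (0.63).

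In the Wnt list 17 of 28 tested genes rose and 4 fell (11 and 12 rose without the WT and the KO pair), with a median of 0.95 log2 (0.89 in the WT and 0.94 in the KO pair). The strongest rise was that of Sfrp2, a secreted Wnt antagonist, from 6.55 to 369 FPKM in the WT pair and from 6.16 to 316 in the KO pair. Receptor genes moved both ways. Fzd2 went from 1.10 to 62.1 and from 2.34 to 76.8 FPKM, Fzd7 from 6.61 to 94.9 and from 8.48 to 86.9 FPKM and Fzd3 from 0.417 to 24.3 and from 0.307 to 17.3 FPKM, while Fzd5 went from 33.4 to 2.32 and from 30.3 to 3.24 FPKM. Of targets, Sp5 fell by 3.48 ± 0.40 and Notum, a Wnt deacylase, fell by 3.64 ± 0.20, whereas Lef1 and Nkd1 rose by 2.26 ± 0.30 and 2.01 ± 0.20 and Axin2 had −0.12 ± 0.25 (adjusted p = 0.722). The 5 genes are common readouts of the pathway, and they moved in both directions or did not pass.

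Hedgehog genes rose in 12 of 15 cases and fell in 0, with a median of 1.70 log2 (1.75 in the WT and 1.65 in the KO pair). The ligand Shh was low, at 0 and 0.0280 FPKM at day 0 and 2.34 and 1.75 at day 4. The signal transducer Smo went from 8.14 to 78.4 FPKM in the WT pair and from 7.13 to 68.6 in the KO pair, and the co-receptor genes Gas1 and Boc rose by 4.53 ± 0.17 and 3.33 ± 0.20. Gli3, which chiefly yields a repressor, went from 1.02 to 55.2 and from 0.448 to 35.8 FPKM. Gli1, transcribed in response to the signal, went from 4.403 to 16.1 and from 3.59 to 15.6 FPKM, and Ptch1, likewise a target, from 11.2 to 46.7 and from 12.9 to 36.5 FPKM. Gli2, the chief activator among the Gli genes, had −0.07 ± 0.14 and did not pass. Gli1 did not pass with either pair left out, and Ptch1 and Shh did not pass without the WT pair. Gli1 and Ptch1 did not pass with no filter.

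Notch genes rose in 16 of 21 cases and fell in 2 (1 and 1 fell without the WT and the KO pair), with a median of 1.85 log2 (1.72 in the WT and 1.64 in the KO pair). The ligand Dll1 went from 0.878 to 33.4 FPKM in the WT pair and from 0.632 to 28.6 in the KO pair, and Jag1 from 3.07 to 26.8 and from 3.11 to 19.5 FPKM. Of receptors, Notch2 rose by 2.56 ± 0.20, Notch3 by 1.42 ± 0.16 and Notch1 by 1.06 ± 0.28. Of target genes, which encode repressors that hold progenitors back from becoming neurons, Hes5 rose by 3.88 ± 0.27 log2 and Hes3 went from 0 to 12.9 and from 0.0462 to 13.7 FPKM. Hes1, a relative under other control too, was at 49.8 and 50.1 FPKM at day 0 and 44.9 and 48.9 at day 4. Dtx4, a ubiquitin ligase gene of the pathway, had the largest rise (5.24 ± 0.17), whereas Dtx1 and Rbpj, the DNA-binding partner of Notch, fell (−1.79 ± 0.32 and −0.76 ± 0.13 log2). Notch1 and Rbpj did not pass with either pair left out. Notch1 did not pass with no filter, and Rbpj did not pass with both day 0 series together (−0.40). Dtx1 had −1.11 without the WT pair.

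Retinoic acid genes rose in 15 of 22 tested cases and fell in 3, with a median of 1.48 log2 (1.44 in the WT and 1.66 in the KO pair). The enzymes that break retinoic acid down rose together: Cyp26a1 went from 0.138 to 13.6 FPKM in the WT pair and from 0.0946 to 16.1 in the KO pair, Cyp26b1 from 0.198 to 45.3 and from 0.244 to 42.5 FPKM and Cyp26c1 from 0.285 to 19.8 and from 0.146 to 39.0 FPKM. Aldh1a1 and Aldh1a2, which make it, did not reach the filter, and Aldh1a3 fell from 3.03 to 0.123 and from 4.504 to 0.0886 FPKM. Stra6, the membrane receptor for retinol uptake, rose by 3.05 ± 0.24 and Rdh10, which oxidises retinol, by 1.43 ± 0.19. Among receptors, Rarb went from 0.0876 to 1.97 and from 0.331 to 2.03 FPKM and Rxra from 10.2 to 27.3 and from 6.75 to 24.3 FPKM, whereas Rara and Rarg had −0.22 and 0.34 and did not pass. The homeobox genes Meis1 and Meis2 rose by 5.26 ± 0.17 and 4.54 ± 0.15. The 2 named responders that fell were already expressed at day 0, the homeobox gene Cdx1 (−5.16 ± 0.18) and Stra8 (−1.47 ± 0.22). Rarb did not pass with either pair left out, and Stra8 did not pass without the KO pair. Rarb did not pass with no filter. Stra8 had −2.63 with both day 0 series together.

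The promoters of Cyp26a1 and Rarb are shown because both are textbook targets of retinoic acid receptors and both genes rose. Capitals mark the DR5 element, a direct repeat of the receptor half-site with a spacer of 5 bases. The Cyp26a1 stretch runs from 200 to 11 bases before its RefSeq start (GRCm38.p6, chr19:37697608-37697797, plus strand), with the element on the minus strand 32 to 16 bases before the start. Of Rarb, whose upstream sequence overlaps annotated exons, the element alone is printed (chr14:16575513-16575529, minus strand), 53 to 37 bases before a RefSeq start of the gene.
Cyp26a1: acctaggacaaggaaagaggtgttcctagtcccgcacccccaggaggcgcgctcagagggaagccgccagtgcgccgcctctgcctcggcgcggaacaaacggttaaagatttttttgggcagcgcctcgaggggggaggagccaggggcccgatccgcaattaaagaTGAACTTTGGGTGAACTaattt
Rarb: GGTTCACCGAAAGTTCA
This element was found in 29 of 32851 promoter windows (0.0883%), those of 28 genes, and in 2 of the 18 listed retinoid genes that have a window. Besides these 2, the tested genes with a match were Blvrb, Cfap45 and Syndig1, with −2.10, −0.79 and −0.52 log2, of which Blvrb alone passed, in the direction of a fall.

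Of 29 neural progenitor genes, all tested, 27 rose and 1 fell, with a median of 3.88 log2 (4.30 in the WT and 3.63 in the KO pair). Their summed FPKM went from 618 to 1925 in the WT pair and from 662 to 1562 in the KO pair. Pax6, the paired homeobox gene of neural progenitors, went from 0.195 to 52.8 FPKM in the WT pair and from 0.101 to 38.6 in the KO pair (5.33 ± 0.20 log2, adjusted p = 6.72e-05). Sox1, the earliest specific marker of the neural plate, went from 2.77 to 48.6 and from 2.51 to 42.5 FPKM, and Nes, the intermediate filament nestin, from 4.46 to 40.3 and from 3.54 to 31.9 FPKM. Nr2f2, Irx5 and Dbx1 rose by 4.78, 4.61 and 4.47. Of genes that mark later, gliogenic progenitors, Sox9 rose from 0.145 to 3.96 and from 0.0746 to 3.39 FPKM and Slc1a3 from 2.42 to 9.24 and from 1.47 to 11.5 FPKM. Vim, the vimentin gene, had 0.08 ± 0.16 and did not pass. Ckb, brain creatine kinase, was the member that fell, from 358 to 33.4 and from 429.8 to 45.0 FPKM.

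Genes of neuronal differentiation also rose, 30 of 40 against 1 that fell (0 and 0 fell without the WT and the KO pair), with a median of 1.96 log2 (1.93 in the WT and 1.95 in the KO pair). The proneural factor gene Neurog1 went from 0 to 2.98 FPKM in the WT pair and from 0 to 2.88 in the KO pair. Dcx, the microtubule protein doublecortin of migrating neurons, was listed at 0 at day 0 and at 2.91 and 4.11 FPKM at day 4. At day 4 the growth cone gene Gap43 was at 20.8 and 29.2 FPKM, Ina, a neuronal intermediate filament, at 30.0 and 35.9, and Dpysl3, a growth cone protein, at 85.5 and 63.0. The synaptic genes Snap25 and Syt1 reached 4.37 and 4.25, and 2.15 and 1.18. Neurog2 had 1.95 ± 0.70, Isl1, a motor neuron gene, 1.20 ± 0.44 and Stmn2 −0.76 ± 0.30, and none of these passed. With the 4 KSR libraries alone Neurog2 and Isl1 did pass. Mapt, the tau gene, fell from 7.25 to 1.72 and from 6.37 to 1.96 FPKM. Mapt and Syt1 did not pass with either pair left out, and Dcx did not pass without the KO pair. Dcx did not pass with 5 added (0.76) or with no filter, Mapt did not pass with both day 0 series together or with no filter, and Syt1 did not pass with no filter.

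Of 21 forebrain genes 8 passed the filter, and of these 6 rose and 1 fell (0 and 0 fell without the WT and the KO pair). Lhx2, a LIM homeobox gene, went from 0.429 to 34.1 FPKM in the WT pair and from 1.05 to 22.8 in the KO pair, and Fezf2, a zinc finger gene, from 0 to 5.36 and from 0 to 5.70 FPKM. The 13 forebrain genes below the filter include Six3, Rax, Emx2 and Nkx2-1, none of which reached 1 FPKM in a KSR library. Of 18 tested midbrain and hindbrain genes, 12 rose and 0 fell, with a median of 1.87 log2 (1.76 in the WT and 1.91 in the KO pair). Egr2, also called Krox20, of alternate hindbrain segments, went from 8.50 to 28.5 and from 6.37 to 24.4 FPKM. The midbrain genes En2 and Wnt1 had 0.38 and 0.47, and Pax2 0.91, and did not pass. Of the forebrain genes 10 of 21 tested rose with no filter.

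Of 28 Hox genes, which mark the hindbrain and spinal cord by their order in the clusters, 12 passed the filter, 5 rose and 3 fell. Those that rose were of groups 1 to 3: Hoxb1 was listed at 0 at day 0 and at 21.7 and 20.2 FPKM at day 4, Hoxa2 went from 0.0931 to 24.6 FPKM in the WT pair and from 0 to 20.2 in the KO pair, Hoxb2 from 0 to 61.9 and from 0.0252 to 50.9 FPKM, Hoxb3 from 0 to 23.1 and from 0.0444 to 19.3 FPKM and Hoxa3 from 0.272 to 4.97 and from 0.373 to 4.10 FPKM. The 3 that fell were of groups 4, 9 and 10. Hoxb9 went from 6.25 to 0.0563 and from 7.39 to 0.0346 FPKM, Hoxc4 from 3.18 to 0.303 and from 3.85 to 0.121 FPKM and Hoxc10 from 1.71 to 0 and from 1.45 to 0 FPKM. Hoxb8 and Hoxa4 had 0.52 and 0.43 and did not pass. Neighbouring Hox genes overlap in their transcripts, and the counting of strands is not given in the sources used here. Of the Hox genes 8 of 28 tested rose and 7 fell with no filter.

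Along the dorsoventral axis, 12 of 16 tested genes rose and 0 fell, with a median of 1.77 log2 (1.80 in the WT and 1.74 in the KO pair). Ventral genes were Foxa2 of the floor plate, listed at 0 and 0.283 FPKM at day 0 and 17.1 and 15.1 at day 4, Nkx6-1, which went from 0 to 11.8 FPKM in the WT pair and from 0.0754 to 10.8 in the KO pair, and Olig2, which was listed at 0 and reached 4.25 and 6.19. The intermediate gene Dbx1 reached 22.7 and 19.7 from 0. Of dorsal genes, Pax3 went from 0 to 10.5 and from 0.0257 to 7.45 FPKM and Olig3 from 0.0389 to 9.18 and from 0.120 to 20.3 FPKM. Msx1, of the roof plate, had 0.804 and 0.709 FPKM at day 4, and did not pass.

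**Figure D4:**
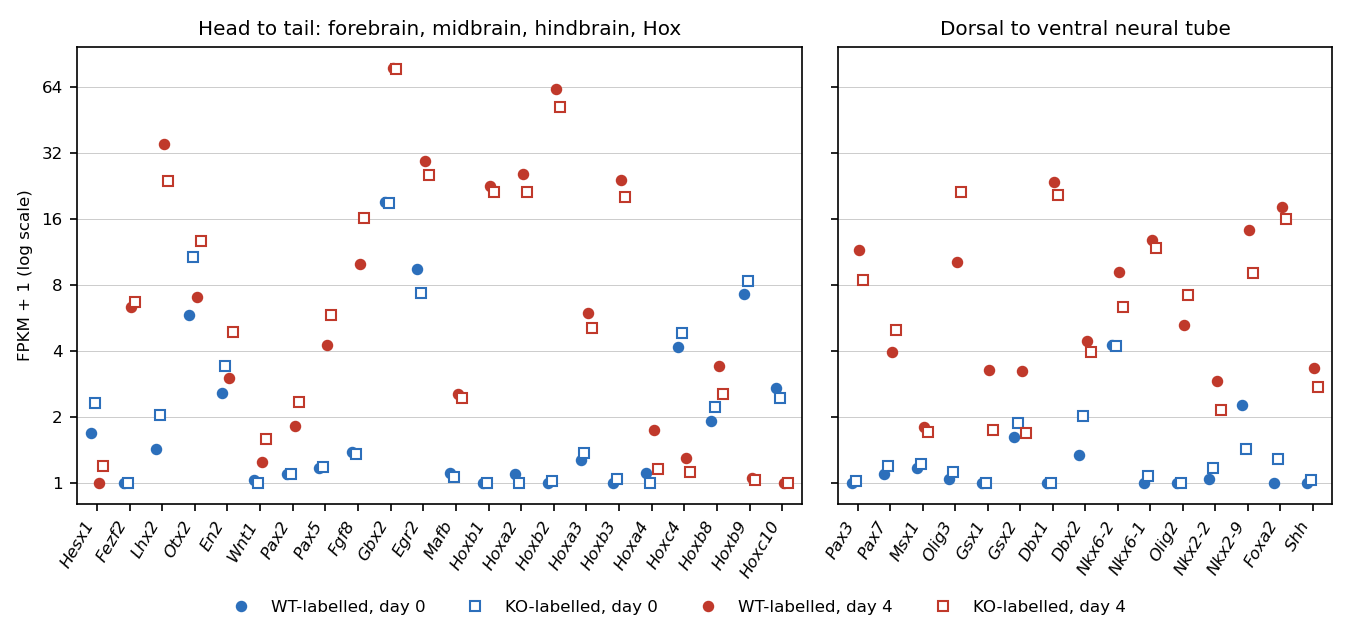
FPKM plus 1 on a log scale in the 4 KSR libraries for genes ordered by their known position, from forebrain to posterior Hox genes (left) and from dorsal to ventral neural tube (right), with blue for day 0, red for day 4, circles for WT-labelled and squares for KO-labelled cells. Day 4 values stand above day 0 for Lhx2 and Fezf2 and for Hoxb1 to Hoxb3, and below for Hoxc4, Hoxb9 and Hoxc10.

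Markers of cell types outside the nervous system were measured beside these changes, and their part in the results was not tested. Of 22 endoderm genes 18 were tested, 8 rose and 0 fell (7 and 4 rose without the WT and the KO pair), and the summed FPKM went from 119 and 96.0 at day 0 to 245 and 245 at day 4. Cxcr4, a chemokine receptor that neural cells also express, went from 1.004 to 71.1 FPKM in the WT pair and from 0.938 to 43.2 in the KO pair and Dab2, an endocytic adaptor, from 0.288 to 13.0 and from 0.260 to 13.1 FPKM. Sox17, a defining factor of endoderm, rose to 1.64 and 1.58 FPKM, while Gata4, Gata6 and Hnf4a had 0.45, 0.73 and −0.71 and did not pass, and Afp stayed below the filter. Of 21 mesoderm genes 8 were tested, 2 fell, Eomes (−2.16 ± 0.35) and Gsc (−2.04 ± 0.20), and 1 rose, Fgf8, which neural cells express too. Their summed FPKM was 20.8 and 20.8 at day 0 and 19.5 and 29.7 at day 4, and Msgn1 was listed at 0 throughout. In the trophoblast list 5 of 8 tested genes fell and 0 rose, from a sum of 63.0 and 86.5 to 7.76 and 10.3, with Tpbpa and Prl3d1 at 0 throughout. Of the endoderm genes 5 of 22 tested rose with no filter. Of the mesoderm genes 3 rose with the 4 KSR libraries alone. Of the trophoblast genes 3 of 14 tested fell with no filter. Sox17 did not pass with either pair left out. Sox17 did not pass with both day 0 series together (0.76), with 5 added (0.35) or with no filter.

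Surface ectoderm genes fell in 7 of 13 tested cases and rose in 1 (2 and 0 rose, and 4 and 5 fell without the WT and the KO pair), with a summed FPKM of 255 and 256 at day 0 and 62.8 and 120.1 at day 4. Tfap2c and Grhl3 fell (−3.71 ± 0.18 and −2.90 ± 0.21 log2), Krt18 rose by 1.31 ± 0.21, and the defining genes Trp63, Krt5 and Krt14 were below the filter. Of 14 tested neural crest genes 6 rose and 5 fell (3 and 3 fell without the WT and the KO pair). Zeb2, which neural progenitors share, went from 0.00793 to 45.7 FPKM in the WT pair and from 0.0380 to 33.3 in the KO pair, and Mitf from 17.0 to 0.963 and from 19.05 to 0.523 FPKM, while Sox10 and Snai2 stayed below the filter and Twist1 had 0.58 ± 0.24. Of 9 tested blood and endothelium genes 2 rose, Lmo2, from 0.181 to 4.51 and from 0 to 5.87 FPKM, and Cd34, by 1.27 ± 0.23 (2 and 1 rose without the WT and the KO pair). The 1 that fell was Pecam1, which stem cells express, from 71.0 to 1.28 and from 75.7 to 1.85 FPKM, and Ptprc and Cdh5 were below the filter. Of the crest genes 3 of 16 tested fell with no filter. Of the 9 blood and endothelium genes 5 rose with the 4 KSR libraries alone and 5 rose with 0.1 added. Cd34 and Krt18 did not pass without the KO pair.

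In the smooth muscle and fibroblast list of 20, 15 were tested, 10 rose and 2 fell (6 and 6 rose, and 1 and 1 fell without the WT and the KO pair), with a median of 1.22 log2 (1.16 in the WT and 1.28 in the KO pair). Acta2, smooth muscle actin, went from 0.249 to 34.6 FPKM in the WT pair and from 0 to 33.1 in the KO pair, Tagln, the actin-binding protein transgelin, from 0.653 to 45.7 and from 0.130 to 59.7 FPKM, and Myl9, a myosin light chain, from 0.489 to 31.2 and from 1.09 to 42.2 FPKM. The summed FPKM nevertheless went from 677 and 677 to 536 and 534, since the list also holds Fn1, fibronectin, which fell from 433 to 55.8 and from 472 to 63.0 FPKM. Myh11, the defining myosin of mature smooth muscle, Lum and Postn were below the filter, and Dcn reached 1.11 FPKM at most.

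Germline genes, which DNA methylation keeps silent in somatic cells and which stem cells express at a low level, fell in 16 of 21 cases and rose in 2 (1 and 1 rose without the WT and the KO pair), with a median of −1.77 log2 (−1.64 in the WT and −1.94 in the KO pair). Dazl, an RNA-binding protein of germ cells, went from 17.6 to 0.611 FPKM in the WT pair and from 32.5 to 0.716 in the KO pair, Tex19.1 from 38.1 to 1.89 and from 36.1 to 4.35 FPKM and Sycp3, of the synaptonemal complex, from 13.6 to 1.91 and from 17.4 to 3.83 FPKM. Dmrtb1 and Tdrkh rose, by 1.54 ± 0.37 and 1.77 ± 0.32. Of 12 genes of DNA methylation 5 rose and 5 fell (3 and 3 rose, and 3 and 4 fell without the WT and the KO pair). Of de novo methyltransferase genes, Dnmt3a went from 9.54 to 53.8 and from 6.55 to 63.6 FPKM and Dnmt3b from 19.02 to 60.2 and from 21.2 to 87.0 FPKM, and the maintenance enzyme Dnmt1 had 0.29 ± 0.10 (adjusted p = 0.0582). Of the Tet dioxygenases, which oxidise methylcytosine, Tet1 went from 76.8 to 10.05 and from 85.2 to 12.6 FPKM, Tet2 from 50.6 to 4.31 and from 39.9 to 3.44 FPKM and Tet3 from 1.90 to 17.6 and from 2.03 to 16.0 FPKM. Methylation itself was not measured. Of the germline genes 10 of 12 tested fell with a filter at 5 FPKM. Tdrkh did not pass without the WT pair, and Dmrtb1 did not pass without the KO pair. Dmrtb1 and Tdrkh did not pass with no filter.

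Of 13 genes of the 2-cell embryo, 7 were tested, 5 rose and 2 fell (5 and 3 rose, and 2 and 1 fell without the WT and the KO pair). Zscan4f, of a cluster that flickers on in rare stem cells, went from 0.725 to 5.87 FPKM in the WT pair and from 0.186 to 5.73 in the KO pair, and Zscan4c from 0.481 to 2.78 and from 0.120 to 2.19 FPKM. These genes are near-identical copies, so the split of reads among Zscan4a, Zscan4b, Zscan4c, Zscan4d and Zscan4f is uncertain and they do not count as separate observations. Of the 2-cell genes 1 of 2 tested rose with a filter at 5 FPKM. Zscan4a and Zscan4d did not pass without the KO pair.

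Imprinted genes rose in 18 of 26 tested cases and fell in 2, with a median of 2.01 log2 (2.05 in the WT and 1.65 in the KO pair). Mest went from 7.84 to 612 FPKM in the WT pair and from 15.3 to 649 in the KO pair, Peg10 from 10.4 to 313 and from 13.1 to 186 FPKM and the growth factor gene Igf2 from 0.396 to 5.59 and from 0.422 to 9.01 FPKM. The noncoding H19, from the other end of the same domain, went from 0.696 to 42.2 and from 1.36 to 67.3 FPKM. Meg3 and Rian of another domain were already high at day 0 and rose by 0.67 ± 0.15 and 0.87 ± 0.11. Igf2r had −0.45 and did not pass, and Grb10 had 0.61 in the WT and −1.43 in the KO pair. Parental alleles were not told apart. Meg3 did not pass with either pair left out. Meg3 did not pass with both day 0 series together (0.37), with no block of genotype or with no filter.

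Of long noncoding RNAs, 8 of 19 tested rose and 6 fell. Lncenc1, Platr14 and Platr10, RNAs of stem cells, fell (−3.80 ± 0.17, −3.28 ± 0.17 and −2.62 ± 0.14 log2). Of RNAs of neural cells, Miat went from 0.0993 to 26.6 FPKM in the WT pair and from 0.145 to 35.9 in the KO pair and Pantr1 from 0 to 12.3 and from 0 to 11.6 FPKM. Sox2ot, whose transcripts run across Sox2, went from 0.932 to 21.0 and from 0.914 to 13.5 FPKM. Xist went from 0.420 to 4.204 and from 0.516 to 4.86 FPKM and its antisense Tsix from 3.70 to 1.39 and from 4.65 to 0.863 FPKM, and as the counting of strands is not given in the sources used here, reads from such overlapping pairs cannot be assigned with certainty. Malat1 and Neat1 had −0.42 ± 0.26 and −1.17 ± 0.41 and did not pass. Without the KO pair Tsix did not pass.

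Cdh1, E-cadherin, went from 153 to 24.5 FPKM in the WT pair and from 156 to 45.7 in the KO pair, and Cdh2 from 0.3005 to 81.8 and from 0.103 to 61.7 FPKM. Of 20 genes of cell contacts 8 rose and 5 fell. The claudin gene Cldn4 fell by 2.20 ± 0.30. Epcam, of epithelial contacts, was −0.27 in the WT and 0.69 in the KO pair and the claudin gene Cldn7 −0.60 and 0.64, and they did not pass, and the tight junction genes Tjp1 and Cgn rose by 0.81 ± 0.16 and 1.89 ± 0.21. Of 19 tested genes of basement membrane and collagen 10 rose and 4 fell. Nid1, nidogen, fell from 85.6 to 6.63 and from 95.2 to 5.77 FPKM, the laminin gene Lamc1 fell by 1.38 ± 0.12, and Col2a1, a collagen of cartilage and notochord, rose from 1.01 to 35.7 and from 0.655 to 40.7 FPKM. Tjp1 did not pass without the WT pair.

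Of the genes of glycolysis 22 were tested, of which 10 fell and 1 rose (0 and 0 rose, and 4 and 9 fell without the WT and the KO pair), with a median of −0.41 log2 (−0.70 in the WT and −0.20 in the KO pair). At the first steps the hexokinase gene Hk1 went from 72.1 to 10.3 FPKM in the WT pair and from 75.9 to 11.9 in the KO pair, its relative Hk2 from 85.5 to 18.7 and from 88.3 to 23.0 FPKM and the phosphofructokinase gene Pfkp from 213 to 18.7 and from 198 to 19.5 FPKM. Gapdh, Pkm, Ldha and Eno1 further down had −0.36, −0.30, −0.34 and −0.23 and did not pass, and the glucose transporter gene Slc2a1 rose by 0.48 ± 0.15. Of 22 tested nuclear-encoded subunits of the respiratory chain 12 fell and 0 rose (4 and 5 fell without the WT and the KO pair), with a median of −0.39 log2 (−0.47 in the WT and −0.34 in the KO pair), Cox8a going from 508 to 213 and from 483 to 239 FPKM. Of the glycolysis genes 6 fell with no filter. Of the respiratory chain genes 7 fell with no filter and 7 fell with no trend. Slc2a1 did not pass with either pair left out. Slc2a1 did not pass with the 4 KSR libraries alone, with no block of genotype, with 5 added, with no filter, by the median log2 ratio or with no trend. Slc2a1 had 0.99 with both day 0 series together, 0.74 without the WT pair and 0.22 without the KO pair.

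Of 23 tested cholesterol synthesis genes 12 rose and 3 fell (6 and 3 rose, and 0 and 0 fell without the WT and the KO pair), with a median of 0.44 log2 (0.43 in the WT and 0.43 in the KO pair). Hmgcs1, at the entry to the pathway, went from 65.4 to 144 FPKM in the WT pair and from 63.9 to 131 in the KO pair. Insig1, a sterol sensor, had −0.38 and did not pass. Of 19 fatty acid genes 7 rose and 7 fell. Cpt1a, which carries fatty acids into mitochondria for oxidation, went from 49.8 to 1.88 and from 59.0 to 2.55 FPKM, while the polyunsaturated fatty acid enzymes Fads2 and Elovl2 rose by 1.48 ± 0.11 and 2.19 ± 0.17. Of the cholesterol genes 4 rose with both day 0 series together and 1 fell with no trend. Of the fatty acid genes 4 rose with both day 0 series together. Fads2 did not pass with both day 0 series together (0.90).

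Genes of the Atf4 stress response and amino acid synthesis fell in 12 of 18 tested cases and rose in 0 (7 and 8 fell without the WT and the KO pair), with a median of −1.35 log2 (−1.35 in the WT and −1.24 in the KO pair). Asns, asparagine synthetase, went from 355 to 25.4 FPKM in the WT pair and from 339 to 25.05 in the KO pair, Atf4 itself from 150.1 to 51.9 and from 151 to 41.4 FPKM, and Nupr1, a small stress protein, from 39.5 to 0.218 and from 34.9 to 0.859 FPKM. Shmt2 and Mthfd2 of mitochondrial one-carbon metabolism fell (−1.61 ± 0.23 and −1.76 ± 0.26 log2). Phgdh and Vldlr had 0.65 ± 0.27 and 0.92 ± 0.33 and did not pass. Of 19 tested iron and antioxidant genes 12 fell and 1 rose (0 and 0 rose, and 5 and 9 fell without the WT and the KO pair), with a median of −0.61 log2 (−0.81 in the WT and −0.52 in the KO pair). The mitochondrial superoxide dismutase gene Sod2 went from 191 to 48.5 and from 209 to 49.6 FPKM, and Nqo1, a target of Nfe2l2, from 22.1 to 2.02 and from 15.8 to 2.48 FPKM. Of the Atf4 list 6 of 19 tested fell with no filter.

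Cell cycle genes changed in 7 cases upward and 11 downward of 31 (3 and 4 fell without the WT and the KO pair), with a median of −0.18 log2 (−0.27 in the WT and −0.16 in the KO pair). Of D cyclins, Ccnd2 went from 0.201 to 66.0 FPKM in the WT pair and from 0 to 38.8 in the KO pair, Ccnd1 from 21.7 to 70.6 and from 34.3 to 59.6 FPKM and Ccnd3 from 213 to 63.2 and from 177 to 65.8 FPKM. Cdkn1a, the inhibitor p21, fell from 148 to 32.4 and from 143 to 38.4 FPKM. Of genes of DNA replication, Pcna had 0.26 and did not pass, and the mitotic cyclin gene Ccnb1 fell by 0.69 ± 0.10. Of 22 tested p53 targets and apoptosis genes 4 rose and 7 fell (4 and 5 fell without the WT and the KO pair). Mdm2, the ubiquitin ligase that p53 induces, fell by 1.35 ± 0.13, and Bmf and Bcl2l11, which promote apoptosis, rose by 2.79 ± 0.24 and 2.25 ± 0.17. In the Myc list 5 of 13 rose and 2 fell (3 and 4 rose, and 0 and 0 fell without the WT and the KO pair), with Mycl going from 7.03 to 92.0 and from 9.16 to 69.1 FPKM and Mycn from 44.4 to 94.4 and from 42.8 to 79.6 FPKM. Of the cell cycle genes 7 fell with no filter. Of the p53 list 4 of 23 tested fell with no filter and 4 fell with no trend. Of the Myc list 3 rose with no filter. Ccnb1 did not pass with either pair left out, and Myc did not pass without the WT pair. Ccnd1 did not pass with both day 0 series together. Ccnd1 had 0.78 without the WT pair.

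Among BAF remodeller subunits 13 of 20 rose and 2 fell (5 and 7 rose, and 1 and 1 fell without the WT and the KO pair), with a median of 0.62 log2 (0.58 in the WT and 0.60 in the KO pair). The alternative ATPase gene Smarca2 went from 0.691 to 19.6 FPKM in the WT pair and from 0.948 to 18.8 in the KO pair, beside Smarca4 at 49.3 to 73.1 and 48.6 to 72.2 FPKM. The neuronal subunit genes Actl6b and Dpf1 had 0.75 and −0.22 and did not pass. Polycomb subunits changed in 5 cases upward and 6 downward of 28 (3 and 4 rose without the WT and the KO pair). Of core subunits of PRC2, Suz12 went from 72.5 to 21.3 and from 79.4 to 22.5 FPKM and Eed from 157 to 72.6 and from 153 to 57.3 FPKM, while the methyltransferase Ezh2 had 0.28 ± 0.11 (adjusted p = 0.0923). Of PRC1 subunits, Phc2 rose from 20.3 to 124 and from 16.1 to 112 FPKM and Cbx2 by 2.04 ± 0.13, whereas Phc1 fell by 0.92 ± 0.19. Smarca4 did not pass with either pair left out, and Phc1 did not pass without the WT pair. Phc1 did not pass with both day 0 series together (−0.44) or with no filter. Phc1 had −0.55 without the WT pair.

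Oncofetal RNA-binding and chromatin genes rose, 8 of 10 against 0 that fell (5 and 6 rose without the WT and the KO pair), with a median of 1.33 log2 (1.41 in the WT and 1.26 in the KO pair). Lin28b went from 0.491 to 21.8 FPKM in the WT pair and from 0.140 to 20.9 in the KO pair, Hmga2, an architectural chromatin protein, from 12.1 to 59.8 and from 19.3 to 56.6 FPKM and Igf2bp3, which binds the mRNA of Igf2, from 24.4 to 69.9 and from 26.6 to 67.1 FPKM. Trim71 and Dis3l2 of the let-7 pathway had 0.11 and 0.20 and did not pass. Of the Dip2 family, Dip2b rose from 5.49 to 13.8 and from 6.40 to 12.6 FPKM, and Dip2a had −0.42 ± 0.19 and did not pass. Dip2b and Hmga2 did not pass without the WT pair. Hmga2 did not pass with no filter. Hmga2 had 2.95 with both day 0 series together.

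The most abundant nuclear-encoded mRNAs at day 4 were those of protein synthesis and folding. Eef1a1, the elongation factor that brings tRNA to the ribosome, had 4683 and 4643 FPKM at day 0 and 4494 and 4662 at day 4. The chaperone gene Hsp90ab1, the elongation factor gene Eef2 and the ribosomal protein genes Rpl41, Rplp1, Rps2 and Rps15 also lay among the 8 highest, with changes between −0.24 and 0.03 log2, and none of these 7 passed. Crabp1 was the remaining one. Of 28 ribosomal protein genes tested 2 fell, Rpl3 and Rpl10a, and 0 rose (0 and 0 fell without the WT and the KO pair), with a median of −0.19 log2 (−0.20 in the WT and −0.17 in the KO pair). Ribosomal protein genes have many processed copies, which can take up part of their reads. Of the ribosomal protein genes 10 fell with the 4 KSR libraries alone, 8 fell with both day 0 series together, 4 fell with no block of genotype, 1 fell with 5 added, 1 fell with no filter, 5 fell when scaled to TPM, 8 fell by the median log2 ratio, 1 fell with no trend and 1 fell with a robust prior. Rpl10a and Rpl3 did not pass with either pair left out.

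The change in KSR medium was set against that in N2B27 medium to see where it differed (n = 2 pairs each). Medium, days of induction and the separate day 0 libraries differ together between these series and cannot be told apart, and the last N2B27 library of the WT label is called day 7 in its column and day 6 in its label. By a limma test of the difference itself, 126 genes (0.789%) responded more highly in KSR and 114 (0.714%) less. These counts moved with the processing: they were 13 and 7 without the WT KSR pair, 2 and 3 without the KO KSR pair, and 0 and 0 when genes below 1 FPKM were kept. Before adjustment 3706 genes had a p under 0.05 in this test. Of the 7513 genes called in KSR, 177 passed the test of the difference. The 12 genes described next were chosen by its size, so they show where it was largest. Without the WT KSR pair Slc27a2, Wt1, Cyp26c1, Pim2, Lefty1, Zic1 and Cited1 still passed, and without the KO KSR pair none of the 12 did.

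Slc27a2, a fatty acid transporter and acyl-CoA synthetase gene, went from 0.583 to 17.3 FPKM in the WT pair and from 0.688 to 21.1 in the KO pair in KSR, and from 2.16 to 0.668 and from 2.87 to 0.268 in N2B27 (difference 4.89 ± 0.34 log2, adjusted p = 0.017). Wt1, a zinc finger gene of kidney and gonad, was listed at 0 at KSR day 0 and at 18.2 and 16.8 FPKM at day 4, against 0.225 and 0.186 at N2B27 day 6 (4.05 ± 0.28). Lhx2 reached 2.47 and 0.802 FPKM in N2B27 (3.89 ± 0.45), Cyp26c1 0.564 and 0.785 (3.89 ± 0.43), and the kinase gene Pim2, at 80.0 and 139 at KSR day 4, 9.48 and 6.48 (3.61 ± 0.37). For each of these 5 genes, chosen for the size of the difference, both KSR day 4 libraries lay above both N2B27 day 6 libraries. Lefty1 rose in KSR and went from 22.4 and 14.3 to 6.87 and 1.24 FPKM in N2B27 (4.68 ± 0.54).

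On the other side, Zic1, a zinc finger gene of the dorsal neural tube, rose in KSR to 10.02 and 9.97 FPKM and in N2B27 to 143 and 186 (difference −3.84 ± 0.26). Msx1 had 33.7 and 32.2 FPKM at N2B27 day 6 (−3.80 ± 0.28), and the basement membrane collagen gene Col4a2 167 and 79.5 against 13.3 and 14.5 at KSR day 4 (−3.92 ± 0.39). Cryab, a small heat shock protein, fell in KSR from 10.6 to 0.770 FPKM in the WT pair and from 7.44 to 1.72 in the KO pair and reached 27.2 and 20.8 in N2B27 (−4.47 ± 0.46). Cited1, a transcriptional co-activator, fell by 1.02 ± 0.23 in KSR and had a fitted change of 2.79 in N2B27 (−3.81 ± 0.32). Anxa2, a membrane-binding annexin, had 15.8 and 15.6 FPKM at KSR day 0 and 4.46 and 11.99 at day 4, and went from 2.90 and 1.02 to 24.8 and 28.97 in N2B27 (−4.30 ± 0.55). The day 0 levels of Anxa2 in the 2 series did not overlap, so part of this difference lies at day 0. The same held for Slc27a2 and Lefty1 above, whose day 0 levels were lower in the KSR series. The KSR change of Cited1 did not pass without the KO pair, with both day 0 series together (−0.49), with no block of genotype, with 5 added (−0.65) or with no filter. The difference itself did not pass with both day 0 series together for Lefty1 (2.45) and Anxa2 (−1.72), with no trend for Anxa2 and with 0.1 added for Cyp26c1 (4.02).

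Of the listed genes, the forebrain gene Fezf2 (2.21 ± 0.28), Fgf8 (2.94 ± 0.38), Wnt8a (3.57 ± 0.33), Lin28a (1.52 ± 0.17) and Zscan4f (2.92 ± 0.31) passed with a higher response in KSR. Lower in KSR were Id2 (−2.12 ± 0.22), Smad7 (−2.06 ± 0.23), Ckb (−2.53 ± 0.15), the dorsal and crest gene Tfap2b (−2.83 ± 0.28) and Sox17 (−3.02 ± 0.40). Among the 12 genes with the largest rise and the 12 with the largest fall in KSR, none passed the test of the difference, which does not show that they responded alike.

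**Figure D5:**
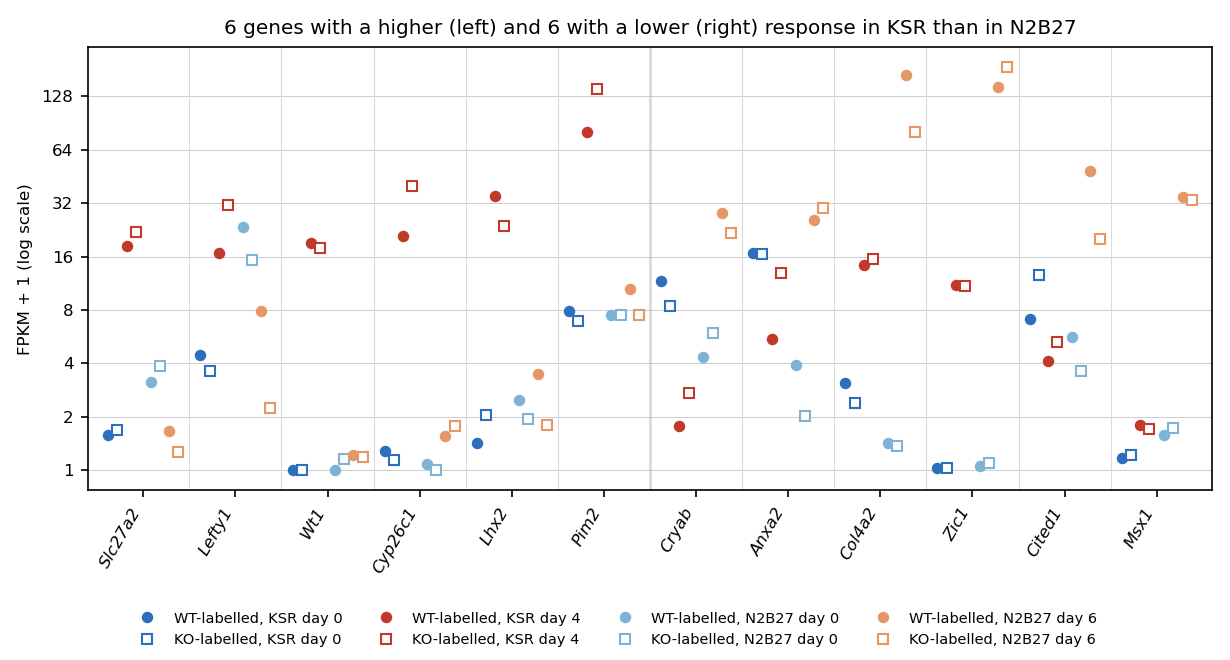
FPKM plus 1 on a log scale in all 8 libraries for the 6 named genes whose response was higher in KSR than in N2B27 (left of the line) and the 6 whose response was lower (right), with dark colours for the KSR and light ones for the N2B27 series. These genes were chosen for the size of the difference. At the last day KSR libraries lie above N2B27 ones for all 6 genes on the left and below for all 6 on the right. An example is Pim2, with 80.0 and 139 against 9.48 and 6.48 FPKM.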

How the data were processed

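RNA was measured by sequencing of 8 bulk libraries of 46C mouse embryonic stem cells. Per the labels' protocols, RNA was taken with an EZBioscience kit, libraries were made with a SMARTer mRNA-seq kit and sequenced as paired ends on a NovaSeq instrument. The authors deposited FPKM per gene symbol. The submitters' processing notes name STAR, Cufflinks and the build mm10, with versions not given in the sources used here. Columns whose names give a genotype and day were matched to the sample titles, which the descriptions of 4 samples contradict, and 0 columns of per-sample values were left out.

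From these values log2(FPKM + 1) was computed for the 15965 genes with an FPKM of 1 in at least 2 libraries. limma 3.58.1 (R 4.3.3) was fitted to all 8 libraries with a block for each genotype and series, a coefficient for KSR day 4 and a coefficient for N2B27 day 6, empirical Bayes with a trend, and Benjamini-Hochberg adjustment over all genes at 0.05. The fit had 2 residual degrees of freedom. With a KSR pair left out it had 1, which came from the N2B27 pairs. On simulated data for the KSR response over 15965 genes, the main fit recovered 86% of 50 genes changed by 1 log2. It recovered 100% of 50 changed by 2, of 50 changed by 3 and of 50 changed by 4. In that same run, which held all these sets, 19 other genes were called. The changed genes had a mean log2(FPKM + 1) of at least 2 at day 0, and the simulated noise was independent. Far fewer genes changed than in the data, and recovery of lower genes was not simulated. Summaries and plots used Python 3.11.15. FPKM sums differ between libraries, so the scaling was among the alternatives tried, beside the pseudocount, the filter, the blocks, the variance prior and leaving out each pair.

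Genes were named as the 12 per direction with the largest change (at 5 FPKM or more on the side where they were high, and 2-fold the same way in both pairs), the 6 per direction with the largest difference from N2B27, the 8 of highest level, the leading members of each list, and members whose failing the test is informative. Further list members were named for their known role after their values were seen. The genes, lists and tests were chosen with earlier results of these data known. A few list members, such as Tubb3, Mvd and Slc7a5, were not analysed here.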

Additional observations from a re-analysis of the deposited data

Results flagged for a closer look

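A set of genes named above is listed here because the change in KSR medium and the change in N2B27 medium differed by the limma test of the difference itself. The values are KSR minus N2B27 responses on the log2 scale, and the medium, the days and the day 0 libraries cannot be told apart in them. Among the 12 chosen for size, the response was higher in KSR for Slc27a2 (4.89), Lefty1 (4.68), Wt1 (4.05), Cyp26c1 (3.89), Lhx2 (3.89) and Pim2 (3.61), and lower for Cryab (−4.47), Anxa2 (−4.30), Col4a2 (−3.92), Zic1 (−3.84), Cited1 (−3.81) and Msx1 (−3.80).

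Signalling genes were found on both sides. Wnt8a (3.57), Lefty2 (3.38), Fgf8 (2.94) and the Wnt target Notum (1.93) had the higher value in KSR, while Wnt1 (−2.70), Id2 (−2.12) and Smad7 (−2.06) had the lower. Of genes of neural position, Fezf2 (2.21) and Olig2 (2.11) were higher in KSR and Tfap2b (−2.83) lower. Of genes expressed in stem cells, Stra8 (2.93), Dppa3 (2.73), Platr10 (1.91) and Lin28a (1.52) were higher, together with Zscan4f (2.92), Zscan4c (1.93) and the imprinted Rian (1.22). Sox17 (−3.02), Ckb (−2.53), Vim (−2.42), Lamc1 (−1.46) and Fn1 (−1.08) were lower. For Notum, Lefty2, Stra8, Dppa3 and Platr10, which fell in KSR, a positive value means that the fall in N2B27 was larger. Dppa3 was low at KSR day 0, which limits the fall it could show there. For Dppa3 and Stra8 the fall in KSR was larger with both day 0 series together, as given above. Part of their difference may thus lie at day 0, which was not tested.

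Other named genes moved in opposite directions in the WT and the KO pair, none of them past the test of the shared change. With 1 library per genotype and day this difference was not tested. The widest gaps were those of Grb10, at 0.61 in the WT and −1.43 in the KO pair, Utf1, at −1.21 and 0.31, and Cldn7, at −0.60 and 0.64. Gata4 had −0.063 and 0.96, Rarg −0.16 and 0.84, Epcam −0.27 and 0.69, Axin2 0.30 and −0.53, and Ldha −0.70 and 0.028. Gaps were small for Vim (0.17 and −0.0052), Rpl41 (−0.074 and 0.081), Eef2 (−0.043 and 0.11) and Eef1a1 (−0.060 and 0.0060).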

How the results depend on the processing

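The counts of genes that rose and fell in KSR medium stayed within 1.5 times under the alternatives that kept both pairs, at 3378 to 4792 higher and 2376 to 3541 lower. These are counts and not shares, since 11567 genes were tested with a filter at 5 FPKM and 26900 with no filter. The shares called varied more than the counts. With 1 pair left out they were 2129 to 2143 higher and 1520 to 1622 lower. Genes at least 2-fold changed in both pairs, a measure with no test, numbered 960 higher and 773 lower with 5 added to each FPKM in place of 1. Scaling each library to a fixed sum moved the median change of all genes to 0.13 log2, so small changes are best read relative to it. With the 4 KSR libraries alone, 15 named genes that had not passed gained a call. Among them were Neurog2, Isl1, Pax2, Msx1, Gata6, Dnmt1, Ezh2, Pcna, Gapdh, Insig1 and Neat1. When scaled to TPM 7 named genes gained a call, and with 0.1 added 5 did. For such genes, not passing in the main fit depends on the setting.

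The difference from N2B27 depended on the setting most of all. It held 411 genes higher and 396 lower with both day 0 series as one, 485 and 395 with no block of genotype, 215 and 196 with the filter set on the KSR libraries, 216 and 207 with a filter at 5 FPKM, and 83 and 75 with 0.1 added. The lower count alone moved past 1.5 times when scaled to TPM (275), by the median log2 ratio (206), with a robust prior (178) and with no trend (75). With no filter it was 0 in both directions, and with 1 KSR pair left out 2 to 13 higher and 3 to 7 lower. The cause was not tested.

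Genes named above that turned direction had not passed the test. With both day 0 series together Anxa2 had 0.30, Cldn7 −0.29, En2 −0.40, Malat1 0.025, Rpl41 −0.15, Sall4 0.081 and Utf1 0.40. Eef1a1 had 0.021 when scaled to TPM, and by the median log2 ratio Cldn7 had −0.017, Eef2 −0.013 and Rpl41 −0.042. Without the WT pair Eef1a1 had 0.0060, Ldha 0.028, Utf1 0.31 and Vim −0.0052. Without the KO pair Axin2 had 0.30, Cldn7 −0.60, Eef2 −0.043, Epcam −0.27, Gata4 −0.063, Grb10 0.61, Rarg −0.16 and Rpl41 −0.074. The median of the contact gene list turned to −0.02, that of the fatty acid list to −0.10 and that of the mesoderm list to −0.06 with both day 0 series together. The contact list median was −0.24 without the KO pair, that of the Myc list −0.03 by the median log2 ratio and −0.02 without the WT pair, and with a filter at 5 FPKM the mesoderm list had −1.21 and the blood list −4.86. No counts were used, so the depth behind low FPKM values is unknown.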
